A study of Mus musculus with 20 samples.

Results

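Ubiquitin and its relatives NEDD8, SUMO and ISG15 are joined to proteins by a cascade that an E1 activating enzyme starts, and 8 genes of this first step and of ubiquitin recycling are described here: Uba1, Uba6, Uba7, Uba3, Nae1, Uba2 and Sae1, which encode the E1 enzymes or their subunits, and Uchl1, a neuronal ubiquitin hydrolase. They were taken by symbol from the 45700 genes of the deposited table, because E1 enzymes and Uchl1 have been implicated in spinal muscular atrophy (SMA). All 8 passed the filter on low values (a mean FPKM of 1 or more, averaged across the 20 libraries), as did 15247 genes in all. RNA was measured in whole brains of “Taiwanese” SMA mice, which lack mouse Smn and carry the human SMN2 transgene on 1 allele (Smn-/-; SMN2tg/0), and of heterozygous littermates with the same transgene (Smn-/+; SMN2tg/0), all congenic FVB. Brains came from pups of postnatal day 5, called early-symptomatic, with 2 mice per genotype for each RNA fraction. Pups of postnatal day 7, called late-symptomatic, gave 3 mice per genotype for each RNA fraction. The total cytoplasmic RNA (RNA-seq, pooled from all fractions of a sucrose gradient) and the polysomal RNA (POL-seq, pooled from the polysomal fractions) were each sequenced, which gives 8 groups and 20 libraries. The values are FPKM, fragment counts scaled to exon length and to the mapped fragments of a library, so that levels of different genes can be compared per length, and the number of reads behind a single value was not determined here.

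An E1 enzyme uses ATP to activate the end of ubiquitin or of a ubiquitin-like protein and passes it to an E2 conjugating enzyme, which with an E3 ligase joins it to a target. UBA1 is the main E1 of ubiquitin, UBA6 activates ubiquitin and the related FAT10, and UBA7 activates ISG15, an interferon-induced modifier. The E1 of NEDD8 is a pair of UBA3 and NAE1 and drives cullin ligases, whereas the E1 of SUMO is a pair of UBA2 and SAE1. UCHL1 cleaves small adducts from ubiquitin and is one of the most abundant proteins of neurons.

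Uba6 is shown by sequence because it was the E1 gene that passed the test in both fractions of day 7 and because the study listed quantitative PCR primers for it. The primers below are given 5′ to 3′, and both matched the last exon, number 33 of 33, of the 6590-nt transcript in its 3′ UTR.
Uba6 forward: gctccctgcggttatgatca
Uba6 reverse: tccttctttcatccacagggc
They bound an 83-bp segment at chr5:86112391-86112473 of GRCm38, on the minus strand of the gene (chr5:86109287-86172803). The FPKM values below count fragments over all exons of the gene and not this segment.

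The brain contained all 8 mRNAs in every library, over a span of levels from 0.46 to 1110.1 FPKM. Uchl1 was the most abundant in each of the 8 groups, with a lowest value of 663, a median of 861 and a highest of 1110.1 FPKM over the libraries, and lay above 99.5% of the tested genes. Uba1 was next, with 102, 130 and 194 FPKM, followed by Sae1 with 39.0, 53.4 and 91.5 FPKM. The ranges of neighbouring genes in this order did not overlap within any group down to Sae1. Uba2 (28.8 to 68.1 FPKM), Uba3 (30.7 to 53.1 FPKM) and Nae1 (26.7 to 54.1 FPKM) changed places from group to group, and their values overlapped in 6 of the 8 groups. Uba6 followed with 6.43, 8.15 and 9.86 FPKM, below the level of Nae1, Uba2 and Uba3 in each group. Uba7 was the lowest, with 0.46, 1.03 and 2.14 FPKM, above 0.859% of the tested genes, and its mean of 1.06 FPKM lay just over the filter.

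**Figure D1:**
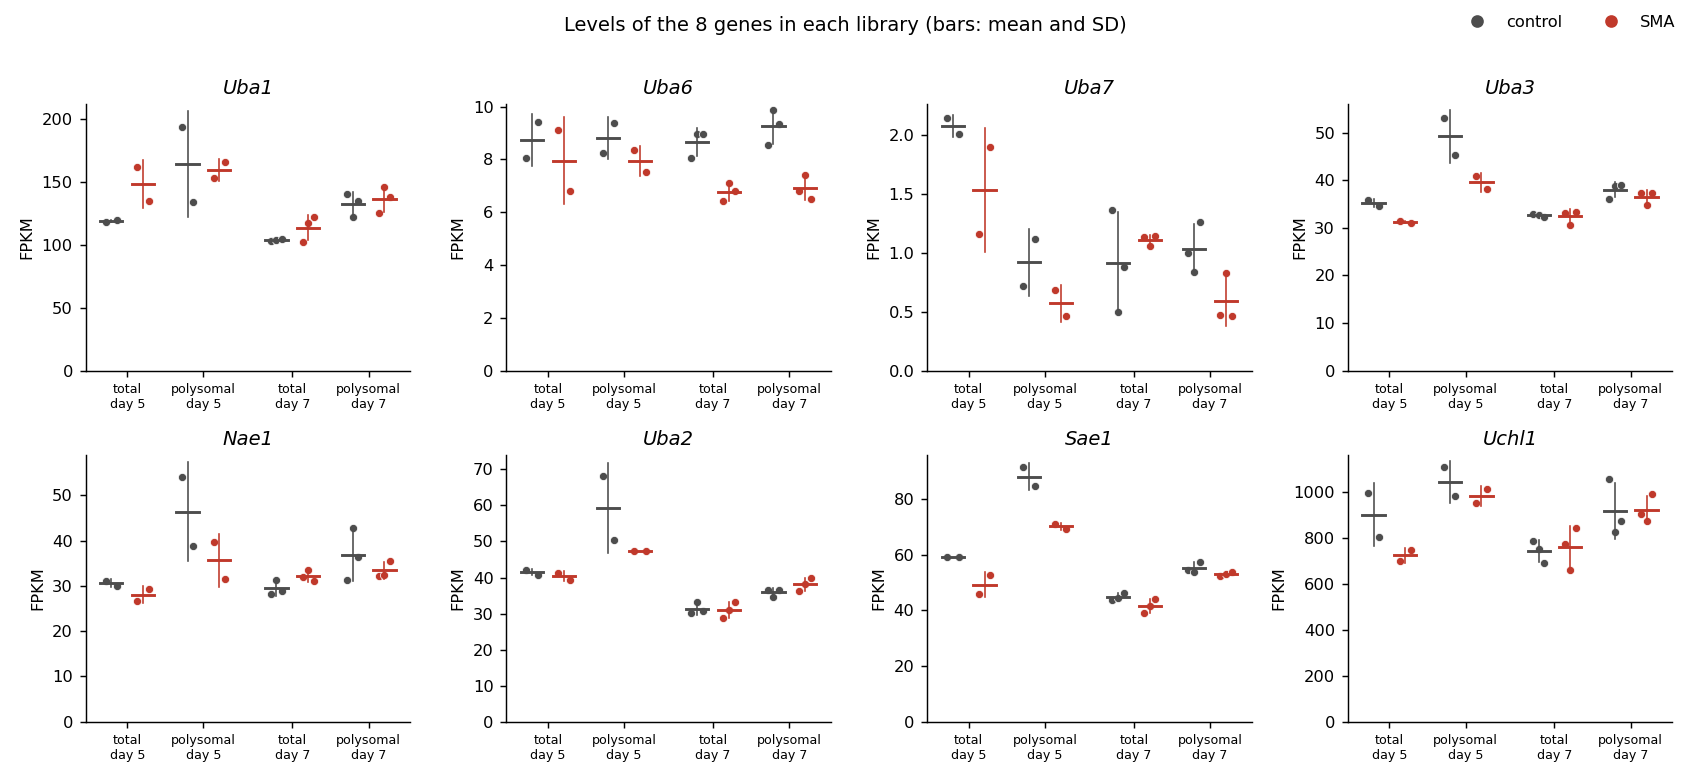
Level of each gene in FPKM (y axis, from 0) in every library, by RNA fraction and day (x axis). Points are libraries, control in grey and SMA in red, and bars are the mean and SD. Uba6 is lower in all SMA libraries of day 7 in both fractions, and Sae1 and Uba2 are lower on day 7 than on day 5.

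The main comparison asked whether the E1 genes differed between SMA and control brains in each stage and fraction. With the study's threshold of an unadjusted p under 0.05 (limma), 1 of the 8 genes differed in early total RNA (Uba3), 1 in early polysomal RNA (Sae1), 1 in late total RNA (Uba6) and 2 in late polysomal RNA (Uba6 and Uba7), and all of these were lower in SMA. Of all tested genes, 8.25% passed in early total RNA (4.36% higher and 3.89% lower), 12.5% in early polysomal RNA (5.65% higher and 6.82% lower), 9.54% in late total RNA (4.84% higher and 4.70% lower) and 10.7% in late polysomal RNA (5.35% higher and 5.38% lower). The counts of 1 or 2 among the 8 genes are near this background, which itself moved with single libraries. With each library left out in turn it ranged from 2.63% to 28.3% in early total, 5.19% to 19.8% in early polysomal, 6.72% to 11.2% in late total and 7.25% to 13.5% in late polysomal RNA. After Benjamini-Hochberg adjustment over all tested genes, 0 of the 8 passed in any of the 4 comparisons, where 0.164%, 0.649%, 0.111% and 0.0918% of all genes did. The replicates are separate mice, and an exact two-sided permutation test cannot go below p = 0.333 with 2 mice against 2 or below p = 0.10 with 3 against 3, so single genes are given with limma's SE or 95% interval and adjusted p. Genotypes that do not differ would be fully separated, in either direction, with these same probabilities of 0.333 and 0.10. The share of all tested genes whose genotypes were separated was not determined here.

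The size of the differences was small. In early polysomal RNA all 8 log2 fold changes were below 0, with a median of -0.31 against -0.01 for all tested genes, and in early total RNA 7 of 8 were, with a median of -0.16 against 0.01. On day 7, 4 of 8 in total RNA and 5 of 8 in polysomal RNA were below 0, with medians of 0.01 and -0.06. On day 5 the fold changes of all genes rose with transcript length (Spearman's rho of 0.393 in total and 0.310 in polysomal RNA over 15162 genes), and genes of up to 1835 nt had a median of -0.17 and -0.13. The longest transcripts of Uchl1, Sae1, Uba3 and Uba2 have 1177, 1875, 2561 and 2579 nt, those of Uba7, Nae1, Uba1 and Uba6 3620, 3974, 4071 and 6590 nt. With length removed from each library, 0 of the 8 genes passed on day 5 in either fraction.

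**Figure D2:**
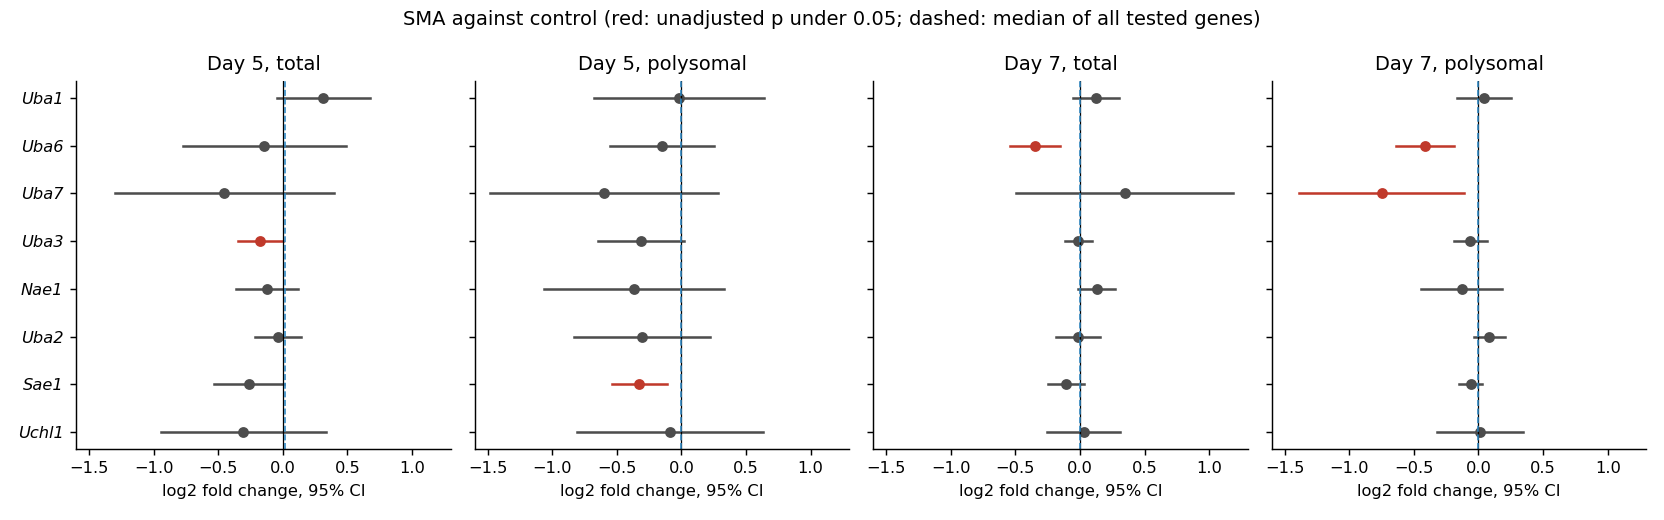
Change of each gene (y axis) in SMA against control as log2 fold change of FPKM + 0.1 (x axis), with the 95% confidence interval of limma as a line, by stage and fraction. Red marks an unadjusted p under 0.05 and the dashed line the median of all tested genes. Uba6 is left of 0 in both fractions of day 7, with intervals that do not reach 0.

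Of the ubiquitin E1 genes, Uba6 fell on day 7 in both fractions and Uba1 did not pass the threshold in any of the 4 SMA comparisons. In late total RNA, Uba6 measured 8.04, 8.97 and 8.98 FPKM in the controls and 6.43, 7.11 and 6.81 FPKM in SMA. In late polysomal RNA it measured 8.56, 9.86 and 9.33 FPKM in the controls and 6.81, 7.43 and 6.51 FPKM in SMA. In both fractions every SMA value lay below every control value. The log2 fold changes were -0.35 ± 0.08 (SE, n = 3 per genotype, 95% interval -0.54 to -0.15, limma adjusted p = 0.320) and -0.41 ± 0.09 (-0.63 to -0.19, limma adjusted p = 0.259). Leaving out each of the libraries of the comparison in turn gave -0.31 to -0.40 in total and -0.37 to -0.47 in polysomal RNA, each past the unadjusted threshold. The study also measured the UBA6 protein in SMA and reported that it was lower, matching the RNA. The protein values were not examined here.

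On day 5 the values of Uba6 overlapped. The controls had 8.04 and 9.43 FPKM and SMA 9.11 and 6.79 FPKM in total RNA, and in polysomal RNA the controls had 8.26 and 9.39 FPKM and SMA 8.35 and 7.54 FPKM. The changes were -0.14 (95% interval -0.78 to 0.49) and -0.15 (-0.55 to 0.25), intervals that include both 0 and the change of day 7. The difference of the SMA effect between the stages was -0.20 ± 0.19 in total (limma interaction, adjusted p = 0.657) and -0.27 ± 0.14 in polysomal RNA (adjusted p = 0.427), so the stages were not shown to differ. Without SMA 2 of day 5 the difference in total RNA was -0.41 and passed the unadjusted threshold.

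Endothelial markers were lower in the same SMA libraries as Uba6. All 5 genes of the list (Pecam1, Cldn5, Cdh5, Flt1 and Tek, which mark the lining cells of blood vessels) passed with lower values in late total and late polysomal RNA, with median log2 fold changes of -0.78 and -0.92, and 5 and 3 of them in early total and early polysomal RNA, with medians of -0.80 and -0.65. Tek, a receptor of angiopoietins, fell by 1.65 in late total RNA, 1 of the genes that passed with adjustment (limma adjusted p = 0.0404), and Cldn5, a tight-junction protein and the most abundant of the 5 with a mean of 33.2 FPKM, fell by 1.03.

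Summed over the 5 markers, late total RNA held 40.0, 46.3 and 53.3 FPKM in the controls and 22.9, 26.3 and 23.0 FPKM in SMA. Late polysomal RNA held 53.5, 54.2 and 62.5 FPKM in the controls against 28.6, 33.7 and 27.6 FPKM in SMA. Early total RNA held 70.5 and 63.2 FPKM in the controls against 30.1 and 28.3 FPKM in SMA, and early polysomal RNA 127.6 and 83.8 against 45.0 and 33.7 FPKM. The marker sums were thus separated by genotype on both days, whereas Uba6 was separated on day 7 alone, and none of the 5 was at 0 in any library. Cldn5 makes up most of the sums, with a mean of 33.2 FPKM. Pecam1, Cdh5, Flt1 and Tek had means of 5.94, 3.29, 2.65 and 2.63 FPKM. The genes whose values were most like those of Uba6 over the 20 libraries were Ptprb (Pearson's r = 0.925), an endothelial phosphatase, Flt1 (r = 0.880), a VEGF receptor, and Ets1 (r = 0.874), a transcription factor. The libraries share genotype, day and fraction, and the r values are a description. The part of the endothelial markers in the result on Uba6 was not tested, and in whole brain fewer cells of a type and less RNA per cell cannot be told apart.

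**Figure D3:**
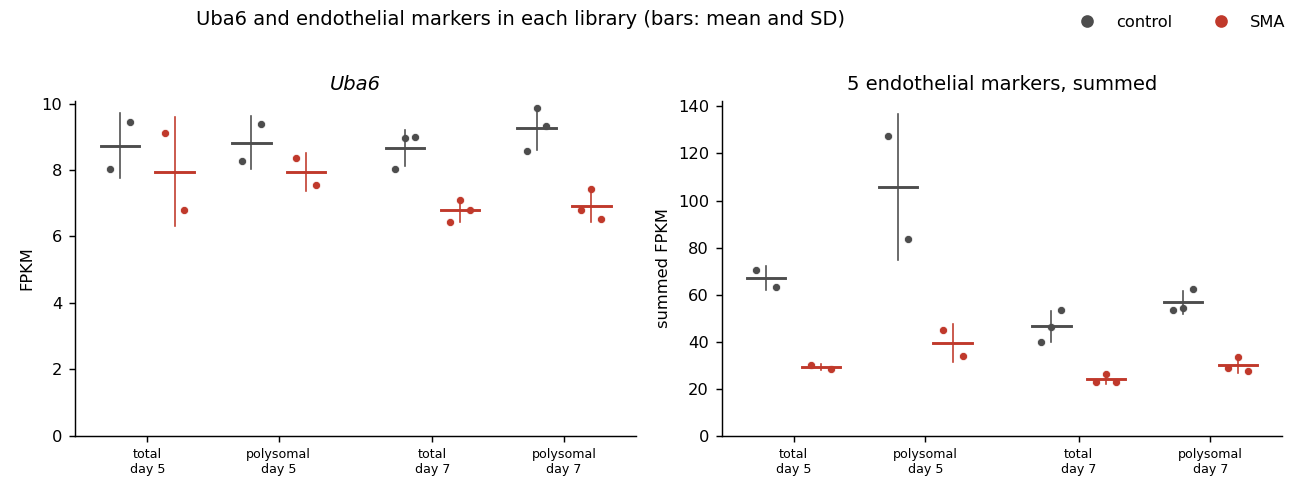
Level of Uba6 in FPKM (left y axis) and summed FPKM of 5 endothelial markers (right y axis) in every library, by fraction and day (x axis). Points are libraries, control in grey and SMA in red, and bars are the mean and SD. The marker sums, which are mostly Cldn5, are lower in SMA in all 4 pairs of groups, between 22.9 and 45.0 against 40.0 to 127.6 FPKM in the controls, and Uba6 separates the genotypes on day 7.

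Uba1, which lies on the X chromosome (chrX:20658326-20683179), was higher in the early total RNA of SMA without passing the threshold. The controls had 118 and 119 FPKM and SMA 162 and 135 FPKM, and the values did not overlap (log2 fold change 0.31 ± 0.12, 95% interval -0.05 to 0.67, limma adjusted p = 0.551). The higher SMA value came from the female mouse of the 4 early total libraries (the other 3 were male by Xist and Y-linked genes). Without this mouse, which leaves 1 SMA library that is assumed to vary like the controls, the change was 0.18, and without the other SMA mouse it was 0.445, and both passed. A fit with sex as a covariate rests on the same 3 males and gave 0.18 as well. In early polysomal RNA the SMA female had 153 FPKM and the SMA male 166 FPKM. In late total RNA the female controls had 103 and 104 FPKM and the male control 105 FPKM. The SMA female had 122 FPKM there and the SMA males 102 and 117 FPKM. Beyond the fit with sex, the part of sex in the level of Uba1 was not tested. The Y-linked relative of Uba1, Uba1y, did not exceed 0.08 FPKM in any library.

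The early polysomal level of Uba1 was 194 and 134 FPKM in the controls and 153 and 166 FPKM in SMA, where the SMA values lay inside the control range. In late total RNA it had 103, 104 and 105 FPKM in the controls and 102, 117 and 122 FPKM in SMA, and in late polysomal RNA 141, 122 and 134 FPKM against 125, 146 and 138 FPKM. The genotypes overlapped on day 7, with changes of 0.13 (95% interval -0.06 to 0.31) and 0.04 (-0.16 to 0.25), and the first was 0.200 and passed without SMA 1. The ratio of Uba1 to Uba6 gives the balance of the 2 ubiquitin E1 mRNAs, and it restates their values above and is not a separate result. It was 12.03 ± 0.701 in the controls and 16.8 ± 1.04 in SMA in late total RNA (mean ± SD, n = 3), and 14.4 ± 2.04 against 19.8 ± 1.37 in late polysomal RNA. The ranges did not overlap in either fraction (highest control 12.8 and 16.4, lowest SMA 15.9 and 18.4). In early total RNA the ratios of the 2 mice per genotype were 13.7 ± 1.46 and 18.8 ± 1.48 and did not overlap, whereas in early polysomal RNA they were 18.9 ± 6.48 and 20.1 ± 2.58 and overlapped.

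Uba7 (chr9:107975505-107984060) had a lower polysomal level in SMA on day 7. It measured 1.00, 0.84 and 1.26 FPKM in the controls and 0.47, 0.83 and 0.46 FPKM in SMA, and the highest SMA value lay just below the lowest control value. The log2 fold change was -0.75 ± 0.25 (95% interval -1.39 to -0.11, limma adjusted p = 0.419). Near so low a level the size depends on the pseudocount, and with 1 in place of 0.1 the change was -0.361. It lost the threshold without any 1 of 4 libraries, control 1 or 3 or SMA 1 or 3 (-0.76, -0.61, -0.64 and -0.62). The change also did not pass with a replicate block or without a filter (-0.75 in both), or with quantile normalization (-0.59). In late total RNA the controls had 1.36, 0.50 and 0.88 FPKM and SMA 1.13, 1.06 and 1.14 FPKM, and the SMA values lay within the spread of the controls. In early total RNA Uba7 had 2.14 and 2.01 FPKM against 1.16 and 1.90 FPKM, and in early polysomal RNA 0.72 and 1.12 against 0.68 and 0.46 FPKM, with changes of -0.45 ± 0.28 and -0.60 ± 0.29 that did not pass, although the polysomal one was -1.97 and passed with quantile normalization. In total RNA the early change was -0.79 without SMA 2, a description since Uba7 reached the filter through the early total controls (its mean over the other 18 libraries was 0.943 FPKM), and the late one passed without control 1 (0.66). Of the exon bases of Uba7, 3.48% are shared with Gm20661, which had a mean of 0.115 FPKM. The deposited locus of Uba7 spans 73278 nt, against 8556 nt for the gene, and what this means for its FPKM was not tested.

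The genes of the ISG15 pathway differed in level in these brains. Isg15 itself had a mean of 0.659 FPKM and was not tested, and of the 4 other genes of the pathway Usp18, the ISG15 protease, and Herc6, an ISG15 ligase, had means of 0.118 and 0.579 FPKM. Ube2l6, the E2 of ISG15, and Trim25 were tested, with means of 8.68 and 1.14 FPKM, and 0 of 2 passed in any SMA comparison (Ube2l6 had -0.39 and -0.39 on day 5 and 0.14 and -0.10 on day 7). Of 8 interferon-stimulated genes 4 were tested. They passed with lower values in 2 cases in early total and 2 cases in late total RNA, with medians of -0.39 and -0.40, and in 0 cases in polysomal RNA. Rsad2, an antiviral enzyme, fell by 0.62 ± 0.15 in late total RNA (limma adjusted p = 0.337).

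Uba3, the catalytic subunit of the NEDD8 E1 (chr6:97183670-97205647), was lower in SMA on day 5. In early total RNA it measured 35.9 and 34.6 FPKM in the controls and 31.3 and 31.1 FPKM in SMA, and in early polysomal RNA 53.1 and 45.3 FPKM against 41.0 and 38.1 FPKM. The genotypes were separated in both fractions. The change passed in total RNA (-0.17 ± 0.06, limma adjusted p = 0.551) and not in polysomal RNA (-0.31 ± 0.11, adjusted p = 0.401), and with transcript length removed it was -0.11 in total RNA and did not pass. The polysomal change passed without control 2 (-0.43). Without each of the 4 libraries in turn the total value lay between -0.15 and -0.20 and did not pass.

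On day 7, Uba3 had 32.9, 32.7 and 32.4 FPKM in the controls against 33.2, 30.7 and 33.3 FPKM for SMA in total RNA, and 36.1, 38.9 and 39.1 FPKM against 37.2, 34.7 and 37.4 FPKM in polysomal RNA. These values overlapped, with narrow intervals of -0.12 to 0.09 and -0.19 to 0.06 for the change. Nae1, the regulatory subunit (chr8:104511028-104534637), had 31.2 and 30.0 FPKM in the controls and 26.7 and 29.4 FPKM in SMA in early total RNA, and 28.1, 31.4 and 28.9 against 31.9, 33.5 and 31.1 FPKM in late total RNA. It was thus lower in both SMA mice on day 5 and overlapped on day 7, with changes of -0.13 ± 0.08 and 0.13 ± 0.05 that did not pass, although the late one did without control 2 (0.17). In polysomal RNA it spread widely among the controls, with 54.1 and 38.7 FPKM on day 5 and 31.3, 42.8 and 36.5 FPKM on day 7, against 39.8 and 31.6, and 32.2, 32.5 and 35.6 FPKM in SMA. Neither polysomal change passed (-0.37 ± 0.23 and -0.13 ± 0.12).

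Of the 17 other genes of the NEDD8 pathway, all tested, 0 passed in early total, 2 (both lower) in early polysomal, 0 in late total and 2 in late polysomal RNA. The last were Ube2m, an E2 of NEDD8, which rose by 0.18 ± 0.06 (limma adjusted p = 0.413), and Senp8, the NEDD8 protease, which fell by 0.26 ± 0.10 (adjusted p = 0.462). The medians of the list lay between -0.09 and 0.02. Uba3 and Nae1 were present at nearly equal levels per length, with a ratio of 1.08 ± 0.0852 (mean ± SD, n = 20, range 0.908 to 1.21), and their values had r = 0.872 over the libraries.

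Sae1 (chr7:16320234-16387806), a subunit of the SUMO E1, was the gene of the 8 that passed in early polysomal RNA. It measured there 91.5 and 84.6 FPKM in the controls and 71.0 and 69.2 FPKM in SMA, and in early total RNA 59.0 and 59.0 FPKM against 46.0 and 52.5 FPKM. SMA lay below control in both fractions, with changes of -0.33 ± 0.07 in polysomal (limma adjusted p = 0.385) and -0.26 ± 0.09 in total RNA (adjusted p = 0.551). With length removed the polysomal change was -0.20, and without SMA replicate 1 or 2 it was -0.34 or -0.31, and it did not pass in these cases. The early total change passed without SMA 1 (-0.17) or SMA 2 (-0.36). On day 7 it had 43.7, 44.5 and 46.2 FPKM against 39.0, 41.7 and 44.1 FPKM in total RNA and 54.6, 53.9 and 57.5 FPKM against 52.3, 53.1 and 53.8 FPKM in polysomal RNA. These late changes were -0.11 ± 0.05 and -0.06 ± 0.03 and did not pass, with SMA lower in all 3 mice in polysomal RNA by a small margin, and the total value passed without SMA 3 (-0.15).

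Uba2, the catalytic partner of Sae1 (chr7:34140688-34169599), did not pass in any SMA comparison. In early polysomal RNA it had 68.1 and 50.5 FPKM in the controls and 47.4 and 47.4 FPKM in SMA (-0.31 ± 0.17), and in early total RNA 42.0 and 40.8 against 41.3 and 39.4 FPKM (-0.04 ± 0.06). The SMA values lay below the controls in polysomal RNA and between and below them in total RNA. The polysomal value rested on control 1, and was -0.52 and passed without control 2 and -0.09 without control 1. On day 7 it had 30.2, 33.2 and 30.6 against 28.8, 31.0 and 33.1 FPKM in total and 36.6, 34.6 and 36.5 against 36.3, 38.1 and 39.9 FPKM in polysomal RNA, where the ranges overlapped (-0.02 ± 0.07 and 0.08 ± 0.05).

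Sae1 exceeded Uba2 in every library, with a ratio of 1.42 ± 0.119 (mean ± SD, n = 20, range 1.11 to 1.68). The values of the 2 subunits had r = 0.927 over the libraries, the highest among the pairs of the 8 genes. Of the 12 other SUMO pathway genes, all tested, 0 passed on day 5 in either fraction and 1 in each fraction on day 7. Both were higher in SMA, and in late polysomal RNA it was Pias3, a SUMO ligase, which rose by 0.42 ± 0.12 (limma adjusted p = 0.365). The medians of the list were 0.12 and 0.14 on day 5 and 0.03 and 0.03 on day 7.

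Uchl1 (chr5:66676091-66687234) did not differ by genotype past the threshold. In early total RNA it measured 999 and 805 FPKM in the controls and 702 and 748 FPKM in SMA, with SMA below control (-0.31, 95% interval -0.95 to 0.33). In early polysomal RNA the values were 1110.1 and 982 against 951 and 1014 FPKM and overlapped. On day 7 it had 787, 751 and 693 against 773, 663 and 846 FPKM in total RNA and 1056, 826 and 875 against 904, 876 and 990.3 FPKM in polysomal RNA. The late changes were 0.03 (-0.26 to 0.31) and 0.01 (-0.32 to 0.34). The antisense gene Uchl1os covers 18.1% of the exon bases of Uchl1, and its mean of 0.190 FPKM was small beside the 867 FPKM of Uchl1. The study names a stranded library kit and default program settings, and whether the counting used strand was not determined here. The deposited locus of Uchl1 spans 60740 nt, against 11144 nt for the gene, and what this means for its FPKM was not tested. Among the 3 other ubiquitin C-terminal hydrolases, Uchl5, bound to the proteasome, fell by 0.39 ± 0.11 in late total RNA (limma adjusted p = 0.398) with 0.02 ± 0.07 in polysomal RNA, and Bap1, a chromatin hydrolase, rose by 0.12 ± 0.04 (adjusted p = 0.431) and 0.19 ± 0.05 (adjusted p = 0.357). Uchl3, the most abundant with 67.4 FPKM, had -0.45 ± 0.17 and -0.35 ± 0.17 on day 5, and 0.00 ± 0.08 and 0.03 ± 0.08 on day 7. On day 5 0 of 3 passed.

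Steps before and after the E1 enzymes were described in the same way. Of 12 genes of ubiquitin and its relatives 10 were tested, with Isg15 and Ubd, which encodes FAT10, the second substrate of UBA6, below the filter (Ubd had a mean of 0.0120 FPKM and was listed at 0 in 14 libraries). Passing counts were 0 in early total, 1 (lower) in early polysomal, 0 in late total and 1 in late polysomal RNA, the last being Ufm1, which fell by 0.10 ± 0.03 (limma adjusted p = 0.322). The medians of the list were -0.17 and -0.31 on day 5 and 0.10 and 0.03 on day 7, beside 0.01 and -0.01 for all tested genes on day 5.

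Of 27 E2 genes of ubiquitin, all tested, 4 passed in early total (1 higher), 5 in early polysomal (2 higher), 2 in late total and 2 in late polysomal RNA (1 higher in each), where 8.25%, 12.5%, 9.54% and 10.7% of all tested genes passed. Ube2w, which ubiquitinates the N-terminus of its targets, fell in late total RNA by 0.16 ± 0.05 and in late polysomal RNA by 0.21 ± 0.08. Ube2g2, an E2 of protein degradation at the endoplasmic reticulum, rose by 0.22 ± 0.07 in late total RNA, and Ube2r2, an E2 of cullin ligases, rose by 0.12 ± 0.04 in late polysomal RNA. None of these E2 changes passed with adjustment (limma adjusted p = 0.380 to 0.464). Ube2d3, the most abundant of the list with 124 FPKM, had changes between -0.08 and 0.02. The list medians lay between -0.07 and 0.04. Of 3 other E1-like enzymes, among them Atg7 of autophagy and Mocs3 for URM1, 0 of 3 passed in any SMA comparison.

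Whether the SMA effect differed between the stages was tested as the interaction of genotype and stage. In total RNA 2 of 8 genes passed, Uba3 (0.16 ± 0.07) and Nae1 (0.25 ± 0.09), and in polysomal RNA 2 of 8, Sae1 (0.27 ± 0.07) and Uba2 (0.39 ± 0.16), where 10.1% and 13.7% of all tested genes did. Each value is the late minus the early log2 fold change, and in each of the 4 the early value was the lower. None passed with adjustment, with limma adjusted p = 0.486 for both in total RNA and 0.261 and 0.357 in polysomal RNA. With transcript length removed, 1 gene in total and 0 in polysomal RNA passed. With each of the 10 libraries of a fraction left out in turn, Sae1 passed in all 10, whereas Uba3, Nae1 and Uba2 lost the threshold in 8, 5 and 9 of them.

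Translation efficiency (TE), here the polysomal over the total level, was compared between the genotypes, and Uba7 was the gene that passed. On day 5, 0 of 8 genes passed the interaction of genotype and fraction (limma), with changes between -0.33 (95% interval -1.02 to 0.35) for Uba1 and 0.22 (-0.41 to 0.85) for Uchl1, and 2.32% of all tested genes did. On day 7, 1 of 8 passed, against 2.07% of all tested genes. With the replicate number as a block the count of the 8 was the same on both days, while 659 in place of 315 of all genes passed on day 7. The gene of day 7 was Uba7, with a change of -1.10 ± 0.44 (95% interval -2.09 to -0.10, limma adjusted p = 1.00) and of -0.526 with a pseudocount of 1. With libraries of the same number set side by side, its log2 TE lay between -0.41 and 0.65 in the controls and between -1.15 and -0.32 in SMA, and the ranges overlapped. Without control 2 the early change of Uba2 was -0.46 and passed, and without control 1 the late change of Nae1 was -0.34 and passed. For Uba7, without control 3, SMA 1 or SMA 3 the late change was -0.98, -0.97 and -0.95, and it did not pass. Uba6, which was lower in both fractions, had a change in TE of -0.07 (95% interval -0.31 to 0.18).

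In the controls alone, the polysomal level was compared with the total level to see which of the mRNAs were enriched on polysomes. On day 7, 4 of 8 genes were higher in polysomal RNA and 0 lower, Uba1 (0.34 ± 0.06), Uba3 (0.22 ± 0.04), Sae1 (0.30 ± 0.04) and Uba2 (0.20 ± 0.05), where 25.3% of all tested genes passed in either direction. With adjustment 3 of 8 passed, Uba1, Uba3 and Sae1 (limma adjusted p = 0.0343, 0.0413 and 0.0187), against 7.12% of all genes.

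On day 5, 3 of 8 passed, against 25.9% of all tested genes. Uba3 (0.48 ± 0.10) and Sae1 (0.58 ± 0.07) were higher in polysomal RNA, and Uba7 was lower, with 0.72 and 1.12 FPKM against 2.14 and 2.01 FPKM (-1.12 ± 0.24). Since Uba7 reached the filter through these early total controls, its call here and between the days in total RNA is a description. Uba3 and Uba7 lost the threshold without either total library (0.50 and 0.45, -1.08 and -1.16). With adjustment 0 of 8 passed (limma adjusted p = 0.0836 for Sae1), against 1.32% of all genes. Uba6 was the gene closest to equal levels, with 0.02 ± 0.14 on day 5 and 0.09 ± 0.08 on day 7. The medians of the 8 genes were 0.46 and 0.27, those of all tested genes 0.02 and 0.05. Nae1 had 0.58 ± 0.19 and 0.31 ± 0.12 and Uchl1 0.22 ± 0.24 and 0.30 ± 0.12, which did not pass. With the replicate number of the libraries as a block, Nae1 passed on both days and Uchl1 on day 7, for 4 of 8 genes on day 5 and 6 of 8 on day 7. Without either early polysomal library Uba1 (0.176 and 0.705), Nae1 (0.342 and 0.822) and Uba2 (0.284 and 0.715) passed too, and on day 7 Nae1 passed without polysomal control 1 (0.425) and Uchl1 without polysomal control 2 (0.37).

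**Figure D4:**
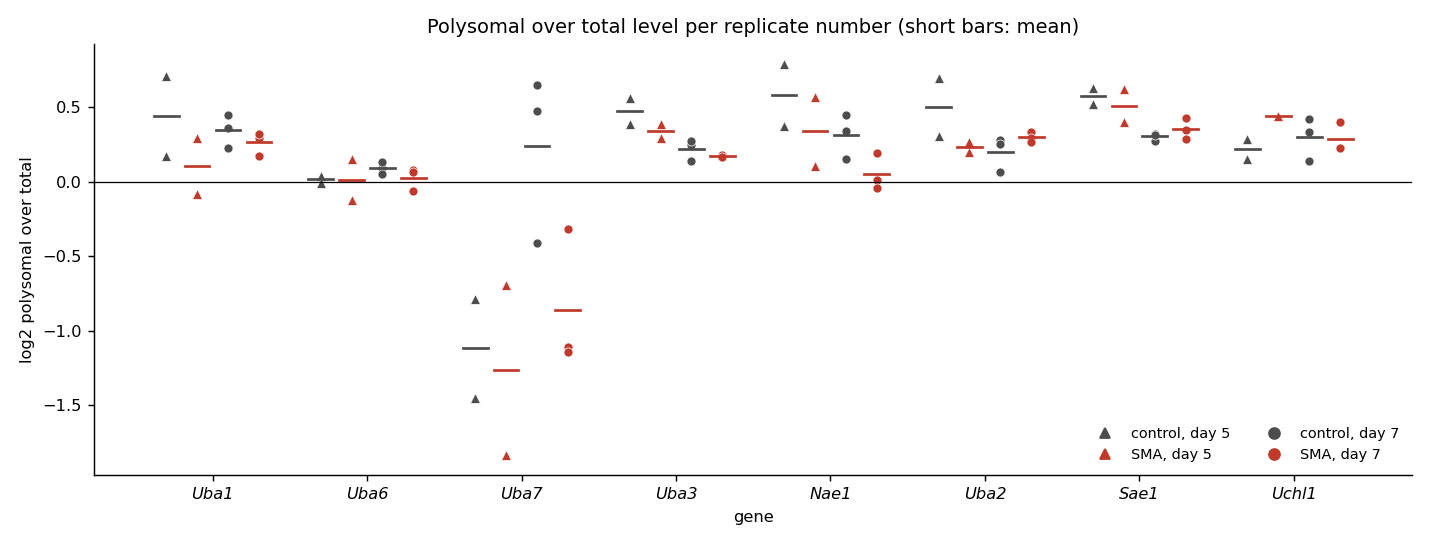
Log2 of the polysomal over the total level (y axis) for each gene (x axis), with the libraries set side by side by their replicate number. Triangles are day 5 and circles day 7, control in grey and SMA in red, and short bars are means. Uba6 lies near 0 (-0.12 to 0.15), Sae1, Uba3, Uba2 and Uchl1 lie above 0 for all 10 numbers, and Uba7 lies mostly below 0, from -1.84 to 0.65.

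Between the days, the genes that passed were all lower on day 7. In the controls, 5 of 8 genes passed as lower on day 7 in total RNA (Uba1, Uba3, Uba7, Sae1 and Uba2). In polysomal RNA 3 of 8 passed as lower (Uba3, Sae1 and Uba2), and 0 passed as higher in either fraction. Of all tested genes, 40.3% and 42.0% passed in either direction, and the share that passed as lower was not determined here. The medians of the 8 genes were -0.23 and -0.31, those of all tested genes -0.03 and -0.03. The call of Uba7 rests on the 2 early total libraries through which it reached the filter. With adjustment, 3 of 8 passed in total RNA, Uba1, Sae1 and Uba2 (limma adjusted p = 0.0200, 0.0124 and 0.0208), and 2 of 8 in polysomal RNA, Sae1 and Uba2 (0.0155 and 0.0401), against 21.2% and 20.6% of all genes. With 1 model over all libraries, Uba1 (-0.193) did not pass the unadjusted threshold in total RNA. The control total values of Uba1 lay close together, with an SD of 0.721 FPKM on day 5 and 0.701 FPKM on day 7. In total RNA, Uba3 lost the unadjusted threshold without control 1 of day 5 or any 1 control of day 7 (-0.08 to -0.11) and with transcript length removed (-0.046), and Uba7 without control 1 or 2 of day 5 or control 3 of day 7 (-1.15 to -1.24). The day and any batch of handling or sequencing cannot be told apart. Sex also went partly with the day. The day 5 controls were male, and on day 7 controls 1 and 2 were female and control 3 male. With sex as a covariate, which sets control 3 of day 7 against the males of day 5, total RNA gave -0.121 for Uba3 and -1.15 for Uba7.

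The SUMO E1 subunits changed most among the genes that passed with adjustment. Sae1 was at 59.0 and 59.0 FPKM on day 5 and at 43.7, 44.5 and 46.2 FPKM on day 7 in control total RNA (-0.40 ± 0.04), and at 91.5 and 84.6 against 54.6, 53.9 and 57.5 FPKM in control polysomal RNA (-0.67 ± 0.06). Uba2 changed by -0.40 ± 0.05 and -0.70 ± 0.14. In both fractions every value of day 7 lay below every value of day 5 for both genes, and this was so in the SMA libraries too. Uba1 changed by -0.19 ± 0.03 in total RNA and by -0.29 ± 0.18 in polysomal RNA, where it did not pass. The polysomal value rested on control 1 of day 5, with -0.025 without it and -0.55, past the threshold, without control 2. Uchl1 in total RNA passed without control 2 of day 5 (-0.43). Uba6 had changes of -0.01 (95% interval -0.30 to 0.28) and 0.07 (-0.24 to 0.37), the smallest of the 8 in both fractions, and Nae1 had -0.05 ± 0.06 and -0.32 ± 0.21.

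**Figure D5:**
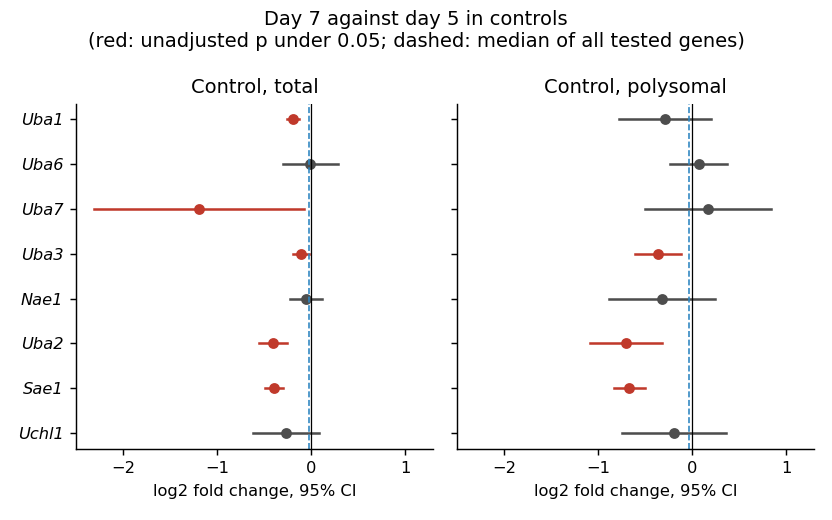
Change of each gene (y axis) from day 5 to day 7 in control brains as log2 fold change of FPKM + 0.1 (x axis), with the 95% confidence interval of limma as a line, in total and polysomal RNA. Red marks an unadjusted p under 0.05 and the dashed line the median of all tested genes. Sae1 and Uba2 lie left of 0 in both fractions, at -0.40 and -0.40 in total and -0.67 and -0.70 in polysomal RNA.

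Over the 20 libraries the levels of Uba1, Uba2, Uba3, Sae1, Nae1 and Uchl1 had r between 0.479 (Uba1 with Nae1) and 0.927 (Uba2 with Sae1) with each other. Uba6 had r between -0.01 and 0.33 with the other 7 genes and Uba7 between -0.31 and 0.17. The libraries share day and fraction, so these r values describe the set and carry no test. The gene nearest to Uba3 was Psmd6 (r = 0.973), a subunit of the proteasome, and the nearest to Sae1 was Marc2 (r = 0.974), a mitochondrial reductase. Tmx1 (r = 0.974), a thioredoxin of the endoplasmic reticulum, was nearest to Uba2, Eid1 (r = 0.929) to Nae1, Lars (r = 0.944), a leucyl-tRNA synthetase, to Uba1, and Psmb5 (r = 0.914), a catalytic subunit of the proteasome, to Uchl1. Pkmyt1 (r = 0.840), a cell cycle kinase with a mean of 1.07 FPKM, was nearest to Uba7.

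The tissue label was checked against markers of brain cells. Neuron markers were abundant, led by Stmn2 with a mean of 1176 FPKM, and astrocyte, oligodendrocyte and microglia markers were present, led by Slc1a3 (110.5 FPKM), Mbp (143 FPKM) and C1qa (22.1 FPKM). In the SMA comparisons 1 of 8 neuron markers passed in early total, early polysomal and late total RNA each, and 0 in late polysomal RNA. In early polysomal RNA this was Tubb3, which was listed at 0 in both control libraries and at 985.6 and 859 FPKM in SMA. The neuron sum without Tubb3 was 1431 and 1630.0 FPKM in the controls and 1591 and 1758 FPKM in SMA there, and the genotypes overlapped. On day 7 the means of the sum over all 8 were 3264 in control and 3203 FPKM in SMA total RNA, and 3615 and 3745 FPKM in polysomal RNA. Of 5 astrocyte and 5 oligodendrocyte markers 0 passed in any SMA comparison. Of 6 microglia markers 1 passed (lower) in each fraction on day 5, 3 in late total RNA (2 higher) and 1 (higher) in late polysomal RNA. C1qa, a complement gene, rose by 0.62 ± 0.13 and 0.47 ± 0.15 on day 7 (limma adjusted p = 0.299 and 0.380), while the medians of the 6 were 0.01 and -0.04. Of 5 erythroid markers, which come with blood in the tissue, 1 passed (lower) in early total and 1 in late polysomal RNA, where Hbb-bt fell by 0.62 ± 0.18 (limma adjusted p = 0.356). The part of these markers in the results on the E1 genes was not tested.

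The level of Smn1, whose mouse alleles are disrupted in SMA, was 9.71 and 8.92 FPKM in the controls and 9.55 and 10.1 FPKM in SMA in early total RNA, and 13.6, 14.1 and 16.7 against 11.9, 12.7 and 17.5 FPKM in late total RNA. The genotypes overlapped in all 4 comparisons. A value over the whole gene does not test the labels of a disrupted allele.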

How the data were processed

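The authors aligned reads of 100 bp to GRCm38.p4 with the Gencode M6 annotation (the submitters' processing notes name TopHat2 2.0.14 and Cufflinks 2.2.1) and deposited FPKM per gene and library for 45700 genes. The study lists mapped reads per library, but read counts per gene were not used here and the counting error of single values was not determined. Columns were matched to libraries by the sample labels, and 0 columns were left unmatched.

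The FPKM values were analysed as log2(FPKM + 0.1) in 15247 genes that averaged 1 FPKM or more. The fits used limma 3.58.1 in R 4.3.3 (lmFit and eBayes with a variance trend). In simulated data with 200 genes changed by a log2 fold of 1, the comparisons recovered 80.0% to 95.0% of them. How well smaller changes are recovered was not tested. Each comparison used the libraries of its own groups, and the change in TE and the difference between the stages were interactions. A gene was called at an unadjusted p under 0.05, the study's threshold, with Benjamini-Hochberg adjustment over all tested genes beside it. Fold changes on this scale understate those of weakly expressed genes. Errors are SE of fold changes and SD of levels. The study's CuffDiff and Xtail need alignments or counts and were not run. Transcript lengths and coordinates came from Gencode M21, which matched 98.8% of the identifiers. Figures were drawn with matplotlib 3.10.9.

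The members and lists were chosen with earlier results of these data known. From each other list, up to 4 genes with the largest change past the threshold and genotypes that did not overlap on day 7 were named, with the most abundant gene, and for each member the 3 most correlated coding genes could be named. Genes of a list given beside these were chosen after their values were seen. Some genes that the rule named are not reported here. Alternatives were pseudocounts of 1 and 0.01, no filter and a filter at 5 FPKM, equal medians, quantile normalization, no variance trend, 1 model over all libraries, removal of a lowess curve on transcript length (span 0.3), sex as a covariate, adjusted p, a replicate block and leaving out each replicate.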

Additional observations from a re-analysis of the deposited data

Results flagged for a closer look

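In the interaction of genotype and stage (limma, unadjusted p under 0.05), 2 of the 8 genes passed in total and 2 in polysomal RNA, where 10.1% and 13.7% of all tested genes did. In total RNA the late minus the early log2 fold change was 0.161 for Uba3 and 0.253 for Nae1, the 2 subunits of the NEDD8 E1. In polysomal RNA it was 0.267 for Sae1 and 0.390 for Uba2, the 2 subunits of the SUMO E1. None passed with adjustment (limma adjusted p = 0.486, 0.486, 0.261 and 0.357). With transcript length removed, the values of Uba3, Sae1 and Uba2 were 0.10, 0.11 and 0.29 and did not pass. With each of 10 libraries left out in turn, Sae1 passed in all 10 (0.211 to 0.324). Uba3 lost the threshold in 8, all but control 2 of day 5 and SMA 2 of day 7 (0.134 to 0.199), and Nae1 in 5, control 1 and SMA 1 of day 5 and control 1, control 3 and SMA 2 of day 7 (0.186 to 0.321). Uba2 lost it in 9, all but control 2 of day 5, without which it was 0.605, and without control 1 of day 5 it was 0.17.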

How the results depend on the processing

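Values of single genes rarely changed sign. Of 1724 alternative values, 1480 had the same direction and side of the threshold, 103 lost it, 75 gained it and 66 changed sign, and for 0 of these 66 was the value as reported past the threshold, while 1 was past it under the alternative (Uba7 with quantile normalization). Uba6 on day 7 passed the unadjusted threshold in both fractions under all alternatives run, and with adjustment in neither.

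The number of the 8 genes called depended on the setting, with causes not tested unless the setting shows them. In early total RNA (1 as reported) it was 0 with a pseudocount of 1, a filter at 5 FPKM, equal medians, length correction, no variance trend or adjusted p, 2 with quantile normalization or sex, and 3 with 1 model. In early polysomal RNA (1) it was 0 with length correction, sex or adjusted p, 2 with equal medians, 3 with quantile normalization and 4 with 1 model. In late total RNA (1) it was 0 with adjusted p. In late polysomal RNA (2) it was 1 without a filter, with a filter at 5 FPKM, which removes Uba7, or with quantile normalization, and 0 with adjusted p. For the late change in TE (1) it was 0 with the filter at 5 FPKM, quantile normalization or adjusted p. For the difference between the stages in total RNA (2) it was 1 with a pseudocount of 1, the filter at 5 FPKM, length correction, no variance trend or sex, and 0 with 1 model or adjusted p. In polysomal RNA (2) it was 1 without a filter, without a variance trend or with sex, and 0 with length correction or adjusted p. For polysomal against total RNA in early controls (3) it was 5 with equal medians, quantile normalization or length correction, 6 with 1 model and 0 with adjusted p. For day 7 against day 5 it was 3 with 1 model, sex or adjusted p in total RNA (5) and 5 with 1 model in polysomal RNA (3).

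Leaving out each replicate gave 0 to 3 genes in early total and early polysomal RNA, 1 to 2 in late total and late polysomal RNA, 0 to 1 and 0 to 2 for the early and late change in TE, 0 to 4 and 1 to 3 for the difference between the stages in total and polysomal RNA, 1 to 6 and 4 to 5 for polysomal against total RNA on day 5 and day 7, and 3 to 5 and 3 to 4 for the days in total and polysomal RNA. A group of 2 then has 1 library, which is assumed to vary like the others.

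Changes of sign occurred in SMA against control with length correction for Uba2 in early total (0.022), Uchl1 in early polysomal (0.090) and Uchl1 in late polysomal RNA (-0.011), with quantile normalization for Uba1 and Uchl1 in early polysomal RNA (0.138 and 0.210), and with sex for Uba1 in early polysomal (0.036) and for Uba3 and Uba2 in late total RNA (0.001 and 0.015). The change in TE changed sign for Uba7 with a pseudocount of 1 (0.011), Uba6 with equal medians, quantile normalization and length correction (0.008, 0.012 and 0.031), Sae1 with quantile normalization (0.024), all on day 5, and Uchl1 with quantile normalization on day 7 (0.002). The difference between the stages did so for Uba2 in total RNA with length correction (-0.043), and in polysomal RNA for Uchl1 with length correction (-0.101) and for Uba1, Uba7 and Uchl1 with quantile normalization (-0.120, 1.377 and -0.184), where Uba7 passed. The change of Uba6 between the days did so in total RNA with equal medians, quantile normalization and sex (0.011, 0.021 and 0.044) and in polysomal RNA with length correction (-0.062).

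With 1 replicate left out, ranges that crossed 0 for SMA against control were -0.354 to 0.064 for Uba6 in early total, -0.285 to 0.244 for Uba1 and -0.177 to 0.000 for Uchl1 in early polysomal, -0.066 to 0.035 for Uba2, -0.034 to 0.026 for Uba3 and -0.053 to 0.123 for Uchl1 in late total, and -0.014 to 0.104 for Uba1 and -0.060 to 0.117 for Uchl1 in late polysomal RNA. For the change in TE they were -0.178 to 0.049 for Sae1, -0.140 to 0.133 for Uba6 and -0.716 to 0.428 for Uba7 on day 5 and -0.096 to 0.047 for Uchl1 on day 7. For the difference between the stages they were -0.028 to 0.072 for Uba2 and -0.412 to 0.007 for Uba6 in total, and -0.001 to 0.479 for Nae1, -0.199 to 0.330 for Uba1 and -0.437 to 0.136 for Uba7 in polysomal RNA. For polysomal against total RNA they were -0.098 to 0.130 for Uba6 on day 5 and -0.094 to 0.547 for Uba7 on day 7, and between the days -0.123 to 0.105 and -0.024 to 0.159 for Uba6 in total and polysomal and -0.123 to 0.450 for Uba7 in polysomal RNA.

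The labels give total and polysomal libraries the same numbers. Their deviations from the group means correlated by -0.04 to 0.11 over all tested genes, so the numbers were not taken as pairs in the values as reported, but by 0.12 to 0.54 over coding genes of at least 5 FPKM, where each library of day 7 correlated best with the one of its own number, and the sex of the total and the polysomal library agreed for all 10 numbers. No label says that both came from 1 brain. With the replicate block, SMA against control called 0 genes in early total, 3 in early polysomal, 2 in late total and 1 in late polysomal RNA. In these SMA comparisons the block joins a control and an SMA mouse of the same number, which are different animals. Their counts therefore do not show the effect of setting 2 libraries of 1 brain together. For polysomal against total RNA the number of genes called was 4 in early and 6 in late controls. With the block and length correction it was 0 in early total RNA, 1 in late polysomal RNA, 2 for the late change in TE and 5 for polysomal against total RNA in early controls, and the sign changed for Uba2 in early total (0.022), Uchl1 in early and late polysomal RNA (0.090 and -0.011) and the early change in TE of Uba6 (0.031).

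Of all tested genes, the numbers called that moved by over 1.5 times were, without a filter, 2907, 3539, 2295 and 2546 for SMA against control (1258, 1902, 1454 and 1637 as reported, in the order early total, early polysomal, late total, late polysomal), 1531 and 996 for the change in TE (354 and 315), 2799 and 3382 for the difference between the stages (1547 and 2084) and 6083 for polysomal against total RNA on day 5 (3947). With 1 model they were 3013 and 3814 on day 5 and 590 for the early change in TE, with the filter at 5 FPKM 1088 in late polysomal RNA and 224 and 199 for the change in TE, with length correction 1024 and 1386 for the difference between the stages, with sex 1214 in early polysomal RNA, 863 for the difference between the stages in total RNA and 3320 for the days in polysomal RNA (6411), and with the block 728 in early total RNA and 659 for the late change in TE, 620 with length correction. With 1 library left out the numbers ranged from 401 to 4319 in early total, 791 to 3023 in early polysomal, 1024 to 1708 in late total and 1105 to 2060 in late polysomal RNA, 301 to 952 and 276 to 722 for the change in TE, 796 to 4220 and 1200 to 3717 for the difference between the stages, and 1395 to 5597 and 2963 to 3530 for polysomal against total RNA on day 5 and day 7.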
